A study of Mus musculus with 12 samples.

Results

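The microRNA clusters of mouse embryonic stem (ES) cells were examined at 5 member genes in a merged list of accessible chromatin regions: Mir294 and Mir295 on chromosome 7, and Mir302b, Mir302d and Mir367 on chromosome 3. Every region that overlapped the members of a cluster or the 20 kb to either side of them was taken, which gave 18 of the 170548 regions in the list, 14 around Mir294 and Mir295 and 4 around Mir302b, Mir302d and Mir367. The 5 members stand among 2202 microRNA genes in the GENCODE M21 annotation. The regions come from ATAC-seq, in which a transposase inserts sequencing adapters wherever DNA is not packed away, and the study made 12 libraries in 6 groups of 2 replicates. ZHBTc4 cells (OCT4 ON or OFF, 24 hr) carry a Tet-Off transgene as their source of OCT4, and 2TS22C cells (SOX2 ON or OFF, 26 hr and 40 hr) carry one as their source of SOX2, so that doxycycline (dox) at 1 µg/ml shuts the factor off, while ON cells received none. All groups grew in serum with LIF and the inhibitors CHIR99021 and PD184352. Both lines are transgenic mouse ES lines, and no other strain or genotype was compared. The list merges the peaks of the ATAC-seq experiments of both lines and holds a chromosome, a start and an end for each region, with no height, read number or value for a sample. It therefore shows where a peak was called in at least 1 experiment and not how strong it was or in which cells. The study also used published ZHBTc4 data from serum and LIF, and whether those peaks entered the list is not given in the sources used here. ON and OFF cells could not be compared, the depth of the libraries is unknown, and marker levels of the ES state could not be checked from positions.

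A microRNA is cut from a hairpin in a longer RNA, and neighbouring hairpins are often carried by the same primary transcript. The mature strand guides an Argonaute protein to messenger RNAs that pair with its seed, the bases at positions 2 to 8, and these messages are then repressed or destroyed. The Mir290 to Mir295 cluster is abundant in naive ES cells and the Mir302 to Mir367 cluster in primed and human pluripotent cells, and both are known for shortening the G1 phase of the cell cycle and for holding back differentiation.

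The mature 3p arms are shown here because they join the clusters into seed families, with the seed in capitals (RefSeq, GRCm38.p6). The first 4 have the seed AAGUGCU and the last has AUUGCAC.
miR-294-3p: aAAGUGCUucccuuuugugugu
miR-295-3p: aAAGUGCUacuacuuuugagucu
miR-302b-3p: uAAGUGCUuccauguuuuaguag
miR-302d-3p: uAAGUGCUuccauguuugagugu
miR-367-3p: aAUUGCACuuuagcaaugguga
The same 7 bases AAGUGCU begin at position 2 in 5 of the 1738 mature arms in the RefSeq table used here (0.288%), which are the 4 members listed and miR-291a-3p of the chromosome 7 cluster. That table does not hold every microRNA, so these counts are the lowest possible. The seed of miR-367-3p is found in at least 7 arms (0.403%), the others being miR-25, miR-32, miR-363, miR-92b and miR-92a from both of its genes. Over the whole arm, miR-302b-3p and miR-302d-3p matched at 20 of 23 positions (87.0%), and outside the seed at 13 of 16. miR-294-3p and miR-295-3p, which are encoded next to each other, matched at 12 of 22 (54.5%), and outside the seed at 5 of 15. miR-295-3p was closer to miR-302d-3p of the other chromosome, with 17 of 23 positions (73.9%) and 10 of 16 outside the seed. miR-367-3p matched the other 4 arms at 5 or 6 of 22 positions.

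The 5p arms come from the other side of the same hairpins and carry other seeds.
miR-294-5p: aCUCAAAAuggaggcccuaucu
miR-295-5p: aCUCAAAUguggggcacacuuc
miR-302b-5p: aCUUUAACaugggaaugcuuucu
miR-302d-5p: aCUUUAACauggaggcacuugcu
miR-367-5p: aCUGUUGCuaacaugcaacuc
miR-302b-5p and miR-302d-5p have the same seed, CUUUAAC. Those of miR-294-5p and miR-295-5p differ in their last base.

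Accessible regions were packed more closely around Mir294 and Mir295 than around Mir302b, Mir302d and Mir367. Mir294 (ENSMUSG00000077903.1, chr7:3220641-3220724) and Mir295 (ENSMUSG00000077886.1, chr7:3220773-3220841) lie on the plus strand, and their window of 40.2 kb held 14 regions, or 0.348 per kb. The regions covered 8311 bp, 20.7% of the window. Mir302b (ENSMUSG00000076252.1, chr3:127545228-127545301), Mir302d (ENSMUSG00000065447.1, chr3:127545624-127545689) and Mir367 (ENSMUSG00000065413.2, chr3:127545733-127545807) are also on the plus strand, and their window of 40.6 kb held 4 regions, or 0.0986 per kb. These covered 2852 bp, 7.03% of the window. The density was thus 3.53 times as high and the covered share 2.94 times as high on chromosome 7. Both windows were above the mean of the genome, 0.0626 regions per kb and 3.10% of bases. Each cluster is 1 locus in 1 pooled list, so the difference between them has no replicate error and was not tested. The GC content of the windows was 44.9% on chromosome 7 and 40.7% on chromosome 3, with 44.7% and 32.6% of bases masked as repeats, and the part of base composition and of mappable sequence in the counts was not tested.

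**Figure D1:**
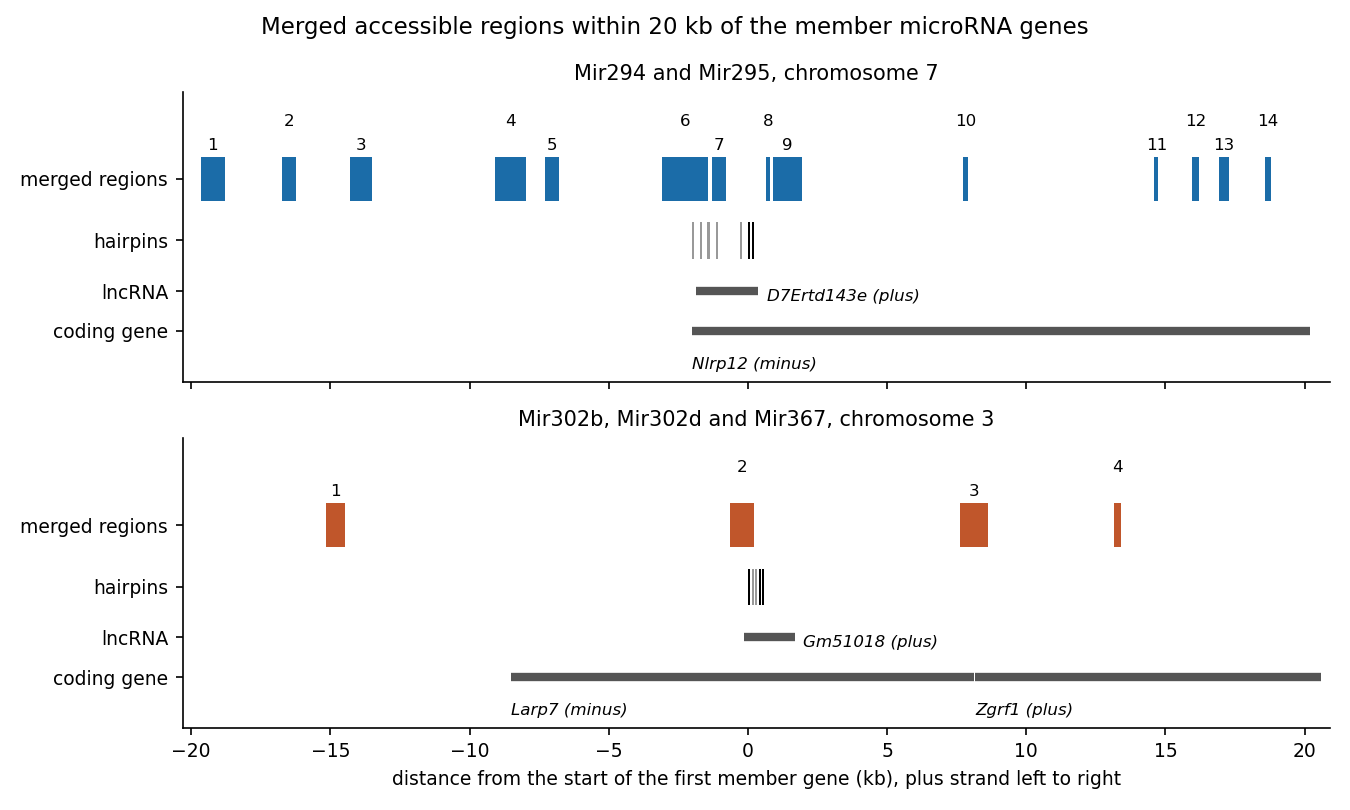
Merged accessible regions (coloured boxes, numbered in order), microRNA hairpins (members in black, others in grey) and RefSeq genes, plotted against the distance in kb from the start of Mir294 (top) or Mir302b (bottom). Of the 14 regions of chromosome 7, 7 lie on each side of the members, and those to the left cover more bases (5914 against 2397 bp). The 4 regions of chromosome 3 stand at least 4500 bp apart.

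Set among all annotated microRNA genes, the members of chromosome 7 were near the top of the range and those of chromosome 3 near the middle. Each of Mir294 and Mir295 had 14 regions within 20 kb, and each of Mir302b, Mir302d and Mir367 had 4, against a median of 3 (quartiles 1 and 6, maximum 19) over the 2202 genes. At least 1 region within 20 kb was found for all 5 members and for 87.2% of all microRNA genes, so that count says nothing particular of the members. At least 14 regions were found for 18 genes (0.817%), of which 9 are the hairpins of the Mir294 and Mir295 cluster itself, which share nearly the same window and count as 1 locus. At least 4 regions were found for 1096 genes (49.8%).

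Grouping hairpins at most 10 kb apart gave 1802 clusters, most of a single gene, and 147 with more than 1 gene. The whole cluster from Mir290a to Mir295 had 15 regions within 20 kb of its 9 hairpins, or 0.355 per kb, against a median of 0.0997 per kb (quartiles 0.0498 and 0.150, maximum 0.474). Of all clusters, 8 (0.444%, 95% Wilson interval 0.225 to 0.874) were at least as dense and 17 (0.943%) at least as covered, itself included in both. Among the 147 clusters of several genes it was the densest, followed by Mir8111 with Mir1199 (0.348 per kb), by Mir6546 with its neighbours (0.325) and by Mir26a-2 with Mir546 (0.302). In covered share, 4 of the 147 were at least as high, itself included. The cluster from Mir302b to Mir367 had 0.0986 regions per kb, and 963 of the 1802 clusters (53.4%, 51.1 to 55.7) were at least as dense. In covered share it stood higher, with 655 clusters (36.3%) at or above it. Both counts include the cluster itself. The clusters are the whole annotated set, and neighbouring ones can share regions. The intervals therefore treat clusters as independent draws only as a description, and they do not measure error between samples.

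**Figure D2:**
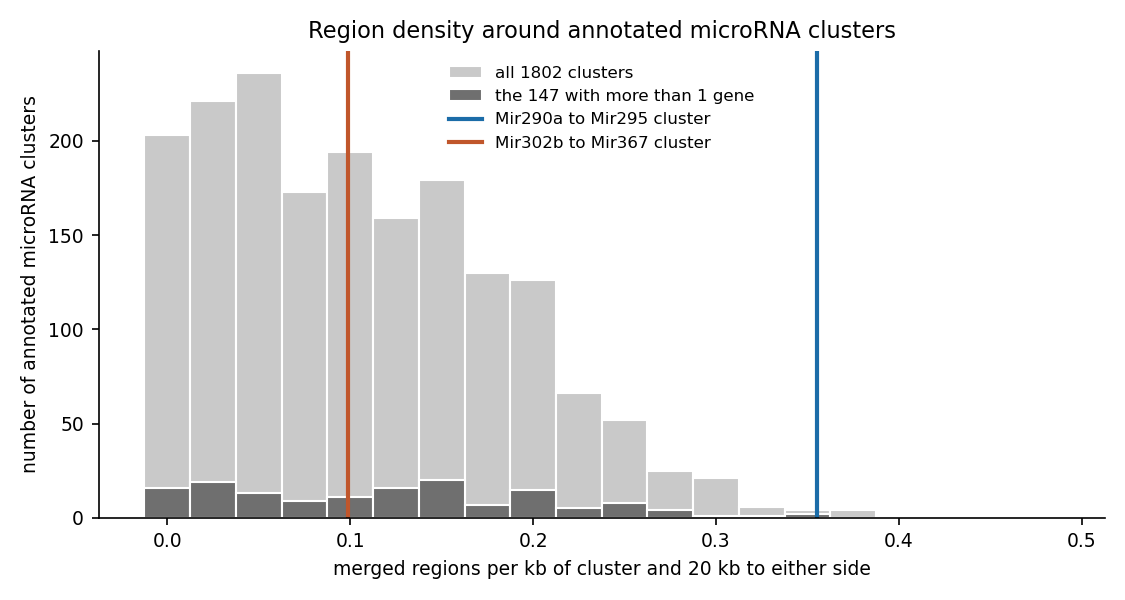
Number of annotated microRNA clusters (y axis) by merged regions per kb of the cluster and its 20 kb flanks (x axis), for all 1802 clusters (light grey) and for the 147 with more than 1 gene (dark grey). The line for Mir302b to Mir367 stands at 0.0986, close to the median of 0.0997, and the line for Mir290a to Mir295 at 0.355, with 8 clusters there or beyond, itself included.

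Of the 5 members only Mir302b was overlapped by a region, against 14.9% of all microRNA genes (329 of 2202, 95% Wilson interval 13.5 to 16.5), a count that sets the members apart from microRNA genes at large in neither direction. All 5 had a region within 1 kb, which held for 29.7% of microRNA genes. The members of a cluster share these regions, so the 5 are not separate observations. Mir302b lay whole within a region of 867 bp. Mir302d was 184 bp and Mir367 293 bp beyond the end of the same region, and the next region downstream was 7.18 kb and 7.06 kb away. Mir294 was 778 bp from the region upstream and 575 bp from the one downstream, and Mir295 was 910 bp and 458 bp from the same regions. The median distance of a microRNA gene to the nearest region was 2822 bp.

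Within both clusters the hairpins at the 5′ end were covered and those at the 3′ end were not. On chromosome 7, Mir290a, Mir290b (on the minus strand) and Mir291a lay whole in a region of 1666 bp, whose end covered 20 bp of Mir292 and 11 bp of its minus-strand counterpart Mir292b. Mir291b lay whole in the next region, of 506 bp. Mir293, Mir294 and Mir295 fell in the 1435 bp up to the following region. On chromosome 3, Mir302b and Mir302c were covered and Mir302a, Mir302d and Mir367 followed at 56, 184 and 293 bp. In all, 6 of 9 hairpins on chromosome 7 and 2 of 5 on chromosome 3 were overlapped. These hairpins share regions and transcripts and are not separate observations. Among the 19 other clusters of at least 3 genes on a single strand, the first hairpin alone was overlapped in 1 (that of Mir449c), the last alone in 1, both in 1 and neither in 16. In the cluster of chromosome 3 the first was overlapped and the last was not. The cluster of chromosome 7 has genes on both strands and was not in that count.

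**Figure D3:**
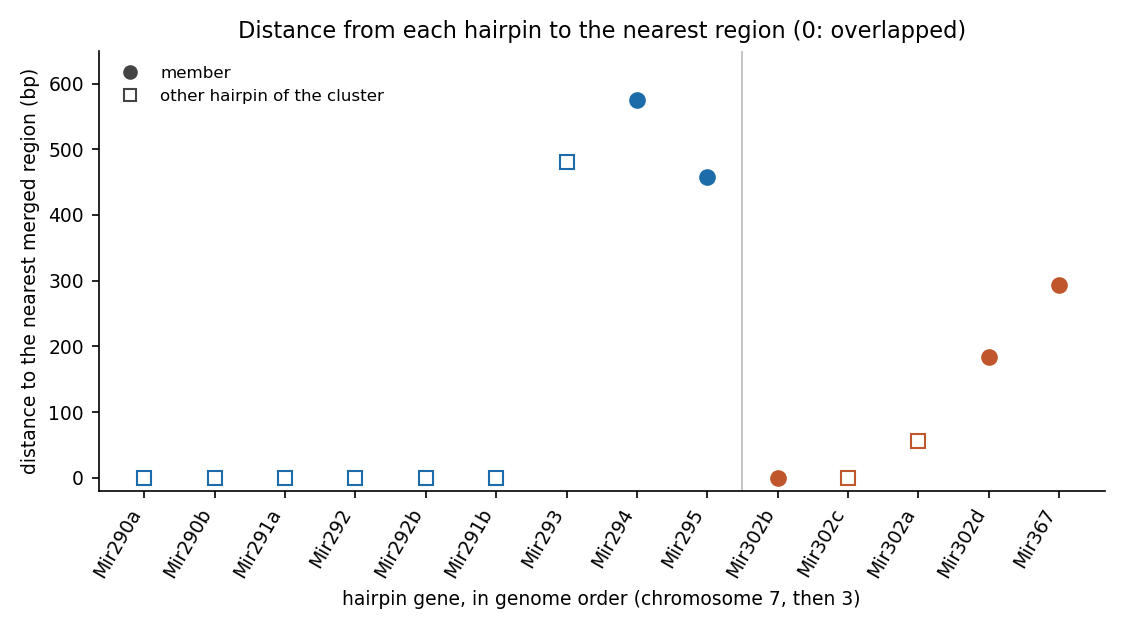
Distance in bp from each of the 14 hairpins to the nearest merged region (0 where overlapped), in genome order, with members as filled circles and the other hairpins as open squares. Mir293, Mir294 and Mir295 stand 458 to 575 bp away, and the chromosome 3 hairpins after Mir302c stand progressively farther off, up to 293 bp.

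The RefSeq lncRNAs that contain the members start inside regions in both clusters. RefSeq places the lncRNA D7Ertd143e on the plus strand at chr7:3218784-3221015, where it contains 6 hairpins, Mir294 and Mir295 included, and 931 of its 2232 bp were covered. Its start lies in the 1666 bp region. Mir290a begins before that start, so the annotated transcript does not hold it. The lncRNA Gm51018 at chr3:127545089-127546903 contains all 5 hairpins of its cluster, 352 of its 1815 bp were covered, and its start lies in the 867 bp region, 139 bp before Mir302b. The promoters of both, taken as 250 bp before to 50 bp after the annotated start, were covered whole. How many of all promoters are covered in this way was not counted. A region within 1 kb of a TSS (transcription start site) was found for 74.7% of protein-coding genes, so covered starts cannot be called particular to these clusters. The clusters also lie across coding genes of the opposite strand. The members of chromosome 3 are in an intron of Larp7, which encodes a protein that holds the small nuclear RNA 7SK. In GENCODE the last exon of Nlrp12, an innate immune receptor gene, runs as a 3′ untranslated stretch of 3692 bp (chr7:3218784-3222475) that contains 7 hairpins, among them Mir294 and Mir295. Regions covered 1990 bp (53.9%) of that stretch. Of the 4 regions that touch it, 7-8 and 7-9 (numbered in order along the chromosome) lie beyond the annotated end of D7Ertd143e, while 7-7 lies within both genes and 7-6 reaches into both.

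The promoter of Gm51018 is printed because that lncRNA contains all 3 members of chromosome 3 and the promoter has the letters of a TATA box, in capitals (chr3:127544839-127545138, plus strand, RefSeq, GRCm38.p6).
Gm51018 promoter: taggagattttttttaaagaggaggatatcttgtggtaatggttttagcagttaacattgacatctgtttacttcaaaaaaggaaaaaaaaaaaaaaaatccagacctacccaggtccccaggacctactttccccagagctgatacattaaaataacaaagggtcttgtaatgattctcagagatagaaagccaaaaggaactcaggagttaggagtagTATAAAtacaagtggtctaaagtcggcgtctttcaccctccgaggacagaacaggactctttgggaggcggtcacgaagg
The letters TATAAA lie 30 to 25 bp before the start of the lncRNA, and 13.6% of the 32851 RefSeq promoters of this length hold them on either strand. The other motifs searched had no match in that promoter. The promoter of D7Ertd143e had a match to none of the motifs. That stretch holds the whole Mir290a hairpin, so it is a promoter only by the annotated start of D7Ertd143e. Where the transcript of the whole cluster starts was not determined. The 300 bp before Mir290a, the first hairpin of chromosome 7, lie in the 1666 bp region and are printed for comparison (chr7:3218326-3218625, plus strand). A SOX element, CATTGT, is in capitals, and 12.6% of the 32851 RefSeq promoters of this length hold those letters on either strand.
Upstream of Mir290a: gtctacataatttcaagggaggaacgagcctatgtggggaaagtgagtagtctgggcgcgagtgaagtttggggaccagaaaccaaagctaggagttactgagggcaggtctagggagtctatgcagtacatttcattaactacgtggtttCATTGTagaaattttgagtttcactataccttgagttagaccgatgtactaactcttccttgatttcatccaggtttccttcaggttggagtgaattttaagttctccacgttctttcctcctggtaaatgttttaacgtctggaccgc

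The regions of chromosome 7 were unevenly spread about the members, although 7 lay on each side. Those upstream covered 5914 bp, 29.6% of the 20 kb, and those downstream 2397 bp, 12.0%, a ratio of 2.47. Upstream, the regions are numbered 7-1 to 7-7 towards the members. Region 7-1 (874 bp) lay 18.8 kb from Mir294, 7-2 (505 bp) 16.2 kb and 7-3 (793 bp) 13.5 kb. Region 7-4 (1084 bp) lay at 7.99 kb and 7-5 (486 bp) at 6.80 kb. Region 7-6, of 1666 bp at chr7:3217543-3219208, was the widest of the 18, and 1.22% of all regions in the list were as wide. It reached 1083 bp upstream of Mir290a. Region 7-7 (506 bp) ended 778 bp before Mir294. All 7 were wider than the median region of the list, 379 bp.

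Downstream of Mir295, the regions close to the cluster were the narrow 7-8 (119 bp, with 99.9% of all regions at least as wide) and 7-9 (1058 bp, chr7:3221536-3222593), which begin 458 and 695 bp from the hairpin. The remaining 5, from 7-10 at 7.52 kb to 7-14 at 18.4 kb, were 155 to 368 bp wide, below the median of the list. They lie within Nlrp12, 7-10 and 7-11 at its exons and the others in introns. On chromosome 3 the regions covered similar lengths on both sides, with 1361 bp (6.81%) upstream, 213 bp inside the span of the members and 1278 bp (6.39%) downstream. Region 3-1 (707 bp) stood 14.5 kb upstream, between genes. Region 3-2 (867 bp, chr3:127544574-127545440) is the one over Mir302b. Region 3-3 (1005 bp) lay 7.06 kb downstream over the divergent starts of Larp7 and Zgrf1, a gene of genome maintenance, and 3-4 (273 bp) 12.6 kb downstream in an intron of Zgrf1, 944 bp from the start of the antisense gene Gm43729. Widths over 1 kb were found in 3 of 14 regions on chromosome 7 and 1 of 4 on chromosome 3, against 9.8% of the list.

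A region is called distal when its center is over 1 kb from the nearest transcription start site (TSS). With microRNA genes counted among the TSSs, 11 of 14 regions on chromosome 7 and 1 of 4 on chromosome 3 were distal, and 82.7% of all regions were, so that the share on chromosome 7 was near that of the list. With microRNA genes left out, all 14 were distal on chromosome 7 and 2 of 4 on chromosome 3, against 82.9% of the list. The start of Nlrp12 lies beyond the window, 670 bp from the nearest region. The lncRNAs D7Ertd143e and Gm51018 are in RefSeq and were not among these TSSs, which came from GENCODE, although their starts lie in 7-6 and 3-2.

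The CpG ratio (observed over expected) set 3-3 and the pair over the Mir290a end of the cluster apart from the other regions, and GC content did not. Region 3-3 had a GC content of 61.4%, 80 CpG dinucleotides and a CpG ratio of 0.846, and 2.13% of all regions had a ratio as high. Region 7-10 had a like GC content of 61.2%, with a CpG ratio of 0.227. Region 3-2, over the start of Gm51018, had a GC content of 40.3% and a CpG ratio of 0.258, close to the median of the list, 0.243 (quartiles 0.132 and 0.402). Regions 7-6 and 7-7 had CpG ratios of 0.494 and 0.535, above the upper quartile. The other 12 regions of chromosome 7 were below it. Repeat-masked bases made up 26.6% of the covered bases on chromosome 7 and 18.7% on chromosome 3. Region 7-12 was masked whole, 7-14 at 91.7% and 3-4 at 88.3%, against a median of 11.9% for the list, and reads in such sequence may map to several places, a part that was not tested.

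**Figure D4:**
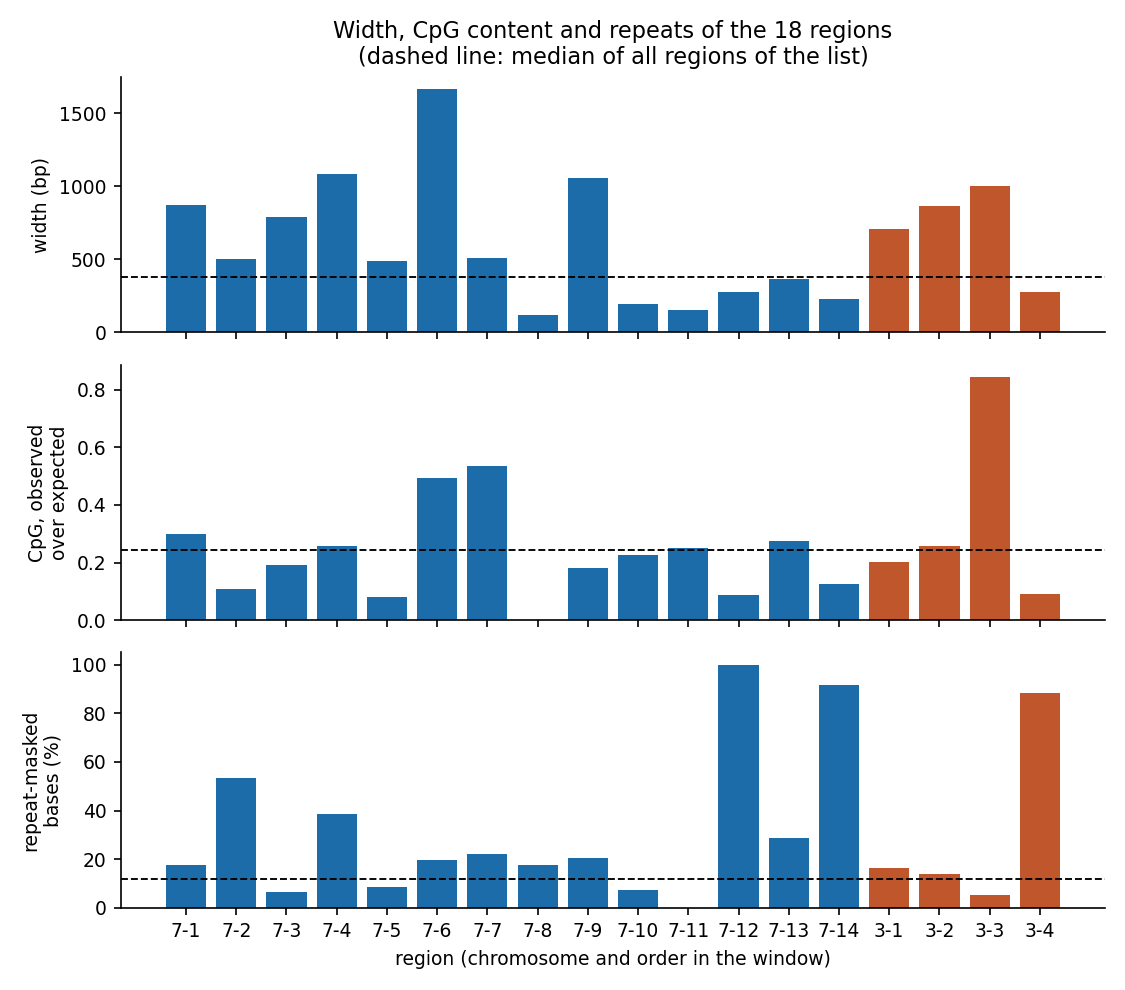
Width in bp (top), CpG ratio, observed over expected (middle), and share of repeat-masked bases (bottom) of each of the 18 regions, in order along chromosomes 7 (blue) and 3 (orange), with the median of all regions as a dashed line. The bars of 7-6 (1666 bp) and of 3-3 (CpG ratio 0.846) are the tallest of their panels, and 7-12, 7-14 and 3-4 stand above 80% masked.

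Because OCT4 and SOX2 are the factors that the study switched off, their motifs and those of other factors of the ES state were searched in the regions on both strands. The letters searched were ATGCAAAT for the OCT octamer and CATTGT for the SOX element. KLF factors were searched by GGGNGTGG, ESRRB by TCAAGGTCA with at most 1 mismatch and STAT3 by TTCCNGGAA. TCF7L1, a factor of the WNT pathway, was searched by CTTTGAT, AP-2 by GCCNNNGGC, and the TATA box by the letters TATAAA. The OCT4::SOX2 composite was taken as CATTGT, any base and ATGCAAAT with at most 2 mismatches, so that it contains the SOX element and the octamer, and CTCF by its core consensus with at most 1 mismatch. A match is a run of letters and not a bound site.

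No region had the OCT4::SOX2 composite or the octamer in its central 200 bp, where 0.575% and 2.01% of all regions had them, shares too low for a count of 0 among 18 to stand out. Over the whole length of the regions the composite was again at 0 of 18 (1.04% of all regions), and 1 region had the octamer (3.72%). The letters used for the composite are strict and matched 1772 regions of the list. The study's own motif search found it at more loci than that, so 0 here is not an absence of the motif. SOX elements were in the center of 7-1 and 7-3 (12.6% of all regions). Over the whole length they were in 4 of 14 regions on chromosome 7 and 2 of 4 on chromosome 3, against 23.1%. Among regions within 10% of the width of each of these, 32.8% (for 3-1) to 36.2% (for 7-6) had one. The octamer was in 7-5, 212 bp from its center. It is printed as the only such match of the 18 regions, in capitals (chr7:3213745-3213839, plus strand, GRCm38.p6), and among the 17175 regions within 10% of its width 4.39% hold an octamer.
Octamer in region 7-5: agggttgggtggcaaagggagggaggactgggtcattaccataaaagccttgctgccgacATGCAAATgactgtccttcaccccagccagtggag

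Among the other motifs, STAT3, the factor through which LIF acts, had 1 match, in the center of 7-1, against 0.88% of all regions in the center, 1.97% over the whole length and 3.55% over the whole length of those of like width. The stretch is printed because it also holds a SOX element, read on the minus strand as ACAATG, and an AP-2 palindrome, all in capitals (chr7:3201329-3201531, plus strand, GRCm38.p6).
SOX, STAT3 and AP-2 in region 7-1: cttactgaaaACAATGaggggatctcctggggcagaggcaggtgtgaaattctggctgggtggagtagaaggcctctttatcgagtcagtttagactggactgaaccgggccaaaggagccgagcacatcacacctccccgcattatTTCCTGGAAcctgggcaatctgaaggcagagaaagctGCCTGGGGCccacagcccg
ESRRB, an orphan receptor of the naive state, had a match in 1 region center (7-10, against 8.67%) and in 5 of 14 regions over their whole length (17.9%). These were 7-2, 7-3, 7-6 with 3 matches, 7-9 and 7-10, and no region of chromosome 3 had one. Among regions of like width the share ran from 9.03% (for 7-10) to 33.8% (for 7-6). The match in 7-9 was exact, and the others had 1 mismatch. CTCF, which organizes loops of chromatin, was matched in 4 of 14 centers on chromosome 7 and 0 of 4 on chromosome 3 (14.8% of all regions), and over the whole length in 6 and 2 (26.7%). For these, the share among regions of like width ran from 15.1% (for 7-14) to 52.2% (for 7-6). An exact CTCF match lay in 7-9, 232 bp before the ESRRB match, and both are printed as the matches with 0 mismatches among those of the 18 regions (chr7:3222093-3222121 and chr7:3222335-3222363, plus strand, the second read on the minus strand).
CTCF in region 7-9: gtgacttggCCAGTAGATGGcagtcttgg
ESRRB in region 7-9: tgtaacaggaTGACCTTGAgtgatcttgt

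KLF had no match in a center (9.9% of all regions) and matches in 7-4 and 7-6 over the whole length (20.7%). TCF7L1 had none in a center (3.52%) and matches in 7-6, 7-7 and 7-9 over the whole length (7.57%). Those of 7-6 and 7-7 lie inside the hairpins Mir291a and Mir291b, so the letters are part of the microRNA sequence. AP-2 was matched in 3 centers, 7-7, 7-10 and 7-11 (9.35%), and that of 7-11 lies outside the 155 bp region, since the 200 bp reach beyond narrow regions. Over the whole length the AP-2 letters were in 7-1, 7-7 and 7-10 (18.8%). TATA was matched in the centers of 3-2, 7-5 and 7-8 (8.1%), of which 3-2 is the one described at the start of Gm51018, and over the whole length also in 7-9 (17.8%). Over their whole length 16 of the 18 regions had a match to at least 1 motif, against 73.9% of all regions. The regions 7-11 and 3-3 had none. Longer regions hold more matches, and the regions of a locus are not replicates.

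**Figure D5:**
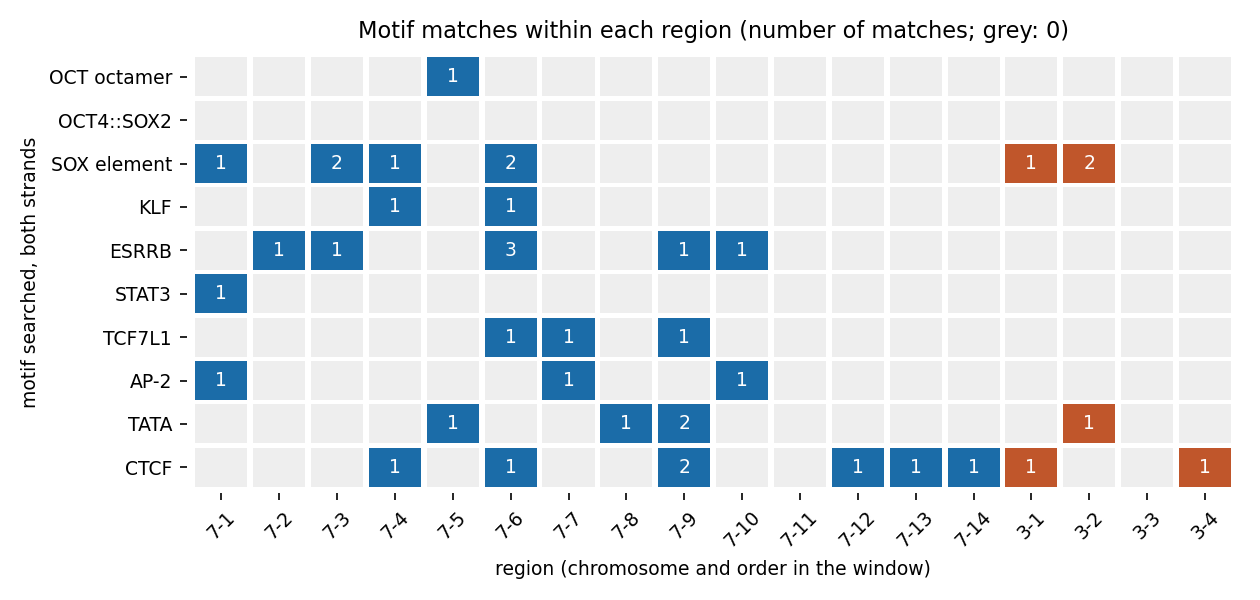
Number of matches to each of 10 motifs (rows) within each of the 18 regions (columns, chromosome 7 in blue and chromosome 3 in orange, grey for 0). The OCT4::SOX2 row is empty, the octamer is filled in 7-5 alone, and ESRRB matches are on chromosome 7 in 5 regions.

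Other genes of the same pathway gave a frame for the members. In the same RefSeq table the seed bases at positions 2 to 7, AAGUGC, are found in the arms of at least 8 annotated genes. Of these, Mir350 on chromosome 1 lies outside both clusters and had 2 regions within 20 kb, the nearest at 16782 bp. In this list 4 of 8 were overlapped, all hairpins of the clusters described, against 14.9% of all microRNA genes. All but Mir350 are hairpins of these clusters and share regions, so this count is not separate from that of the clusters. The same positions of miR-367-3p, AUUGCA, are in at least 7 genes with 2 to 11 regions within 20 kb (median 7), and 1 of them was overlapped, Mir25. Mir92b had 11 and Mir32 10, Mir367 had 4 and Mir92-1 had 2. The let-7 family, which acts against the ES state and is held back by LIN28, had 12 genes with a median of 5 regions (0 to 10), of which 1 was overlapped, Mirlet7i. Of 17 microRNA genes of differentiated lineages 4 were overlapped, against the same 14.9% of all microRNA genes. These were the neural Mir124a-3, Mir9-1 and Mir9-3 and the islet gene Mir375, and the list had a median of 4 regions (0 to 11). Mir223 of myeloid cells and Mir206 of muscle had 0. Both medians were above the 3 regions of all microRNA genes, and Mir294 and Mir295 with 14 were above every gene of these lists, while Mir302b, Mir302d and Mir367 with 4 were at or below the medians.

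All 16 microRNA processing genes found in the annotation had a TSS with a region at most 1 kb away, against 74.7% of 21938 protein-coding genes. Drosha, the nuclear RNase that frees the hairpin, had 26 regions and Ago2, an Argonaute, 25, while Ago4 and Tut4 had 5 each. The known targets of the shared seed had such a region in 10 of 10, with a median of 9 regions within 20 kb. They ranged from Ei24 with 4 to Lats2, a kinase of the Hippo pathway, with 18, and Cdkn1a, the cell cycle inhibitor p21, had 9. Since these genes differ in length, their densities are set beside 0.105 regions per kb, the median of all protein-coding genes. The targets had a median of 0.170 per kb and the processing genes 0.129 per kb, both under the 0.348 per kb of the Mir294 and Mir295 window and over the 0.0986 per kb of the Mir302b, Mir302d and Mir367 window.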

How the data were processed

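ATAC-seq was made by the study in 12 libraries. Per its methods and processing notes, the authors aligned reads to mm10 (GRCm38) with STAR 2.6.1c, removed duplicates with Picard, called peaks with MACS2 2.1.1.20160309 and merged all peaks of ZHBTc4 and 2TS22C cells with bedtools. Their methods then remove peaks over 5 kb, Input peaks and blacklisted peaks. The list still holds 16 regions over 5 kb, so the first of these filters had not been applied to it, and the others were not checked. The deposited file gives positions in bp (a chromosome and both ends for every merged region) and no signal, and 0 columns belong to a single sample. Whether peaks were called per replicate is not given in the sources used here.

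Regions were joined to GENCODE M21 genes and to RefSeq (GRCm38.p6) genes, promoters and microRNAs of the same build, with coordinates counted from 1. Counts, covered bases, distances and motif matches were computed in Python 3.11.15 with NumPy 2.4.6, pandas 2.3.3, SciPy 1.17.1 and pysam 0.24.0, figures with matplotlib 3.10.9, and the functions were tested on simulated data. Clusters joined microRNA genes at most 10 kb apart. The text names the 5 members, the regions and genes in their windows, the hairpins of their clusters, and up to 4 examples of each gene list by most and fewest regions. Other genes named were picked with their values known. The members and lists were chosen with earlier results of these data known. The study's test of dox-treated against untreated cells was not run, since the list has no value per sample. The alternatives tried changed the flank, the width and joining of regions, the TSS set, the cluster distance and the motif window.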

Additional observations from a re-analysis of the deposited data

How the results depend on the processing

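Over 11 results, 35 other settings were tried, of which 23 left the value about where it was and 12 moved it. Only the ratio of regions per kb could be called reversed, and chromosome 7 stayed the denser in each setting. The band for that ratio was wide and took regions as independent, so staying within it says little. Some settings could not change a count. Gaps between regions were at least 118 bp, so joining those less than 100 bp apart did nothing. The chromosome 3 regions were all at least 273 bp wide, so the 200 bp limit dropped none. With a flank of 10 kb the Mir294 and Mir295 window held 7 regions and the Mir302b, Mir302d and Mir367 window 2, covering 25.3% and 9.10%. With a flank of 50 kb they held 29 and 8, covering 15.7% and 5.51%. Dropping regions under 200 bp left 19.5% of the chromosome 7 window covered. The ratio of regions per kb ran from 2.78 (regions of at least 200 bp) to 3.64 (flank of 50 kb). The number of distal regions on chromosome 3 was 3 with TSSs of protein-coding genes and 2 with TSSs of all genes but microRNAs, the latter chosen after seeing the data. Pairs of a region and a motif rose from 14 in the central 200 bp to 24 in 400 bp and 33 in whole regions, since more sequence was searched. No paired analysis was possible because positions pooled over all samples carry no replicate. For the same reason no replicate could be left out in turn, and depth, dox treatment and line cannot be told apart in any region.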
